A study of Mus musculus with 12 samples.

Results

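The 10 genes described here encode enzymes that modify and crosslink collagen: the lysyl oxidases Lox, Loxl1, Loxl2, Loxl3 and Loxl4, the prolyl 4-hydroxylase alpha subunits P4ha1, P4ha2 and P4ha3, and the lysyl hydroxylases Plod1 and Plod2. They were chosen by name from a raw count table of 49568 genes, and all 10 were present and passed the filter on low counts that left 14712 genes for testing. RNA of cardiomyocytes from male mice was sequenced in 12 libraries, with 3 libraries in each of 4 groups: sham-operated controls (control sham), controls with TAC (control TAC), and dKO mice with either operation (dKO sham and dKO TAC). TAC is trans-aortic constriction, which narrows the aorta and overloads the left ventricle, and sham mice had an operation without constriction. Control mice carried the Cre transgene alone (alphaMHC-MerCreMre/+). The dKO mice carried it with a deleted gene for myocardin-related transcription factor A and a floxed gene for factor B (MHC-MerCreMre/+; Mrtf-a-/-; Mrtf-bflox/flox). All groups were given tamoxifen at 30 ug/g on 3 consecutive days when 8 weeks old, had surgery at 10 weeks per the labels' protocols (8 weeks in the series' design text) and were sampled 7 days after it. The alpha myosin heavy chain promoter drives this Cre in cardiomyocytes, so other cells of a dKO heart lacked factor A and kept factor B. The sources used here do not say whether each library came from 1 heart or a pool, and p-values measure the spread between these libraries.

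Collagen chains are hydroxylated inside the endoplasmic reticulum before they fold. Prolyl 4-hydroxylase, a tetramer of alpha subunits and the beta subunit P4hb, makes the hydroxyproline that keeps the triple helix stable, and lysyl hydroxylases make the hydroxylysine that later carries sugars and crosslinks. After secretion, copper-dependent lysyl oxidases convert lysine and hydroxylysine side chains to aldehydes, which link collagen and elastin molecules into fibres that resist extraction and stretch. In the heart, fibroblasts are the main source of fibrillar collagen, and crosslinked collagen is known for stiffening the overloaded ventricle.

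The promoters of 5 of the 10 genes were in the RefSeq promoter table (GRCm38.p6): Loxl4, P4ha1, P4ha2, P4ha3 and Plod1. The 3 sequences below are shown because P4ha3 and Loxl4 were among the genes with the lowest counts after sham and several-fold higher counts after TAC, whereas P4ha1, a subunit of the same enzyme as P4ha3, had a 1.59-fold difference at most. Each is the 250 bases before the annotated start, 5' to 3' along the gene's strand, and capitals mark matches on either strand to ACGTG or GCGTG, the core letters of the hypoxia response element.
P4ha3 (chr7:100285270-100285519, plus strand): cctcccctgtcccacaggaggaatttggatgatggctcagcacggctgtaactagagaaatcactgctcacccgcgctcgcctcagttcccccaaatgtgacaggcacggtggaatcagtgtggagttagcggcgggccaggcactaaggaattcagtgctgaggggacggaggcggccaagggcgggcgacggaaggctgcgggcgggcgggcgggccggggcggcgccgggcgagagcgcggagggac
Loxl4 (chr19:42612807-42613056, minus strand): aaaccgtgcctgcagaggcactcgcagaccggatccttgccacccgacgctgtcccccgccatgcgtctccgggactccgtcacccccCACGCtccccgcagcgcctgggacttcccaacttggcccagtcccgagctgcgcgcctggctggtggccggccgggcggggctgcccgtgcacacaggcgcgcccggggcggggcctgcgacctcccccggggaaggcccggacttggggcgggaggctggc
P4ha1 (chr10:59323046-59323295, plus strand): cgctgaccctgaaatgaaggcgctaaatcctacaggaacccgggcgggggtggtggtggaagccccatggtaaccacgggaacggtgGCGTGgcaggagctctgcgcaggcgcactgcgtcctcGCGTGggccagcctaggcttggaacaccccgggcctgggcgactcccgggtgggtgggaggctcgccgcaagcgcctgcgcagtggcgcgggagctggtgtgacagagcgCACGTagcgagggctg
The P4ha1 promoter held GCGTG at 2 places and ACGTG at 1, the Loxl4 promoter held GCGTG once and the P4ha3 promoter held neither. ACGTG was found in 16.6% and GCGTG in 28.2% of all 32851 promoter windows of this length. The CArG box bound by serum response factor (1.47% of all windows), the AP-1 site TGANTCA (6.75%) and the TEAD site GGAATG (12.6%) were searched on both strands as well, and none of the 5 promoters held one. The 5 windows were rich in G and C, from 61.6% in Plod1 to 76% in Loxl4, against a median of 52.4% over all windows.

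The genes lie on separate chromosomes except for Loxl1 and Plod2 (GRCm38, GENCODE release 21, all protein coding). Lox spans 52516067 to 52529867 of chromosome 18, Loxl1 58287738 to 58313186 and Plod2 92542223 to 92608428 of chromosome 9, and Loxl2 69609068 to 69695834 of chromosome 14. Loxl3 spans 83034173 to 83052562 of chromosome 6 and Loxl4 42593982 to 42612813 of chromosome 19. P4ha1 spans 59323296 to 59373304 of chromosome 10, P4ha2 54100095 to 54131665 of chromosome 11, P4ha3 100285520 to 100319699 of chromosome 7 and Plod1 147909753 to 147936767 of chromosome 4. Of the exonic bases of Loxl3, 11.6% are shared with Htra2 on the opposite strand, and 5.57% of those of Loxl2 and 6.42% of those of Plod2 are shared with an opposite-strand noncoding gene or unconfirmed transcript. The library kit marks strand, but the sources used here do not give the strand setting of the counting, so reads of those stretches may not belong to the named gene.

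Total counts per library lay between 20082000 and 29675212. After TMM scaling, 3 counts corresponded to 0.0935 to 0.184 CPM (reads of a gene per TMM-normalised library size). The CPM of all genes can therefore sum to different totals in different libraries. Mkl1, which encodes factor A, lay at 2.15 to 3.2 CPM in the 6 dKO libraries and at 7.59 to 16 CPM in the 6 control libraries. Mkl2, which encodes factor B, lay at 15.2 to 28.1 CPM in dKO and 30.1 to 44.1 CPM in control. The Mkl1 differences passed after sham and after TAC and those of Mkl2 did not, and a whole-gene count does not separate deleted from remaining exons. The 8 cardiomyocyte markers summed to 39735 to 100866 CPM, with none at 0. The 8 fibroblast markers were also present in every library, with none at 0: in control their sum was 304 to 448 CPM after sham and 301 to 927 after TAC, and in dKO 228 to 399 and 398 to 490. In bulk samples, fewer cells of a type and less RNA per cell cannot be told apart. Libraries dKO sham replicate 1 and dKO TAC replicate 2 stood apart: longer transcripts had lower levels in them than in the other replicates of their group (Spearman rho across 9576 genes, which are not independent, of -0.62 and -0.596, against -0.102 to 0.112 in control and 0.456 to 0.647 in the other dKO libraries), and 16.5% and 15.3% of their counts were mitochondrially encoded, against 23.2% to 32.6% in the other 10 libraries.

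The first comparison asked how pressure overload changed these enzymes in control cardiomyocytes. Of the 5 lysyl oxidase genes 4 rose after TAC (Lox, Loxl1, Loxl2 and Loxl3), of the 3 prolyl 4-hydroxylase subunits only P4ha3 rose, and neither lysyl hydroxylase passed the test. Thus 5 of 10 genes rose and 0 fell (quasi-likelihood test of edgeR at a Benjamini-Hochberg adjusted p under 0.05), where 1.9% of all genes tested rose, 0.347% fell and 2.25% passed in either direction. The median log2 change was 2.02 over the 10 genes and 0.00 over all genes tested.

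Lox, the founding lysyl oxidase, had 1.87, 3.9 and 1.04 CPM in control sham and 5.88, 51.3 and 130 CPM in control TAC. The groups did not overlap, but control TAC replicate 1 lay close to the sham libraries and replicate 3 far above them. The log2 change was 4.78 ± 0.93 (SE), 27.5-fold, with an adjusted p of 0.024 (edgeR with Benjamini-Hochberg adjustment). Loxl1, which acts on elastic fibres, had 13.9, 27.4 and 11.6 CPM after sham and 28.1, 61.2 and 161 CPM after TAC. Its lowest TAC library was barely above its highest sham library, and the log2 change was 2.24 ± 0.52 (adjusted p = 0.0478, edgeR with Benjamini-Hochberg adjustment). Loxl2, a collagen IV and fibrillar collagen crosslinker, had 7.81, 13.9 and 5.84 CPM after sham and 23.1, 67 and 71 CPM after TAC, again without overlap. It rose by 2.55 ± 0.48 on the log2 scale, 5.86-fold (adjusted p = 0.0204, edgeR with Benjamini-Hochberg adjustment).

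Loxl3 had 4.16, 6.38 and 2.9 CPM after sham and 6.14, 28.5 and 54.1 CPM after TAC. The groups overlapped through control TAC replicate 1, and the log2 change was 2.72 ± 0.61 (adjusted p = 0.0419, edgeR with Benjamini-Hochberg adjustment). Loxl4 was the scarcest lysyl oxidase, at 0.503, 0.899 and 0.335 CPM (9 to 21 counts) after sham and 0.711, 2.6 and 2.74 CPM after TAC. Its estimate of 1.80 ± 0.60 did not pass (adjusted p = 0.149, edgeR with Benjamini-Hochberg adjustment). All 5 lysyl oxidases thus had positive estimates, and control TAC replicate 1 was the lowest TAC library for each of them.

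P4ha1, the most abundant alpha subunit per length after TAC, had 32.5, 50.6 and 30.3 CPM in control sham and 56.9, 76.7 and 46.5 CPM in control TAC. The groups overlapped and the estimate of 0.67 ± 0.23 did not pass (adjusted p = 0.152, edgeR with Benjamini-Hochberg adjustment). P4ha2, an alternative alpha subunit, had 43.2, 47.7 and 51.6 CPM after sham and 54, 61.8 and 49.1 CPM after TAC, an estimate of 0.21 with a 95% interval of -0.13 to 0.55. P4ha3 was near the detection floor after sham, with 1, 7 and 2 counts, and had 9, 73 and 265 counts after TAC. In CPM these were 0.0457, 0.3 and 0.0744 after sham and 0.337, 2.6 and 8.65 after TAC. Its summed counts per library size were 29.3 times as high after TAC, with a 95% interval of 15.7 to 61.6 that covers counting error only. P4ha3 rose by 4.75 ± 1.07 on the log2 scale in the fit (adjusted p = 0.0435, edgeR with Benjamini-Hochberg adjustment), a size that is uncertain because of the low sham counts.

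Among the lysyl hydroxylases, Plod1, the most abundant gene of the set after sham, had 109, 128 and 95.2 CPM in control sham and 129, 164 and 142 CPM in control TAC. The groups did not overlap, yet the difference was small, at 0.39 ± 0.17, and did not pass (adjusted p = 0.266, edgeR with Benjamini-Hochberg adjustment). Plod2, the enzyme that hydroxylates the telopeptide lysines used in crosslinks, had 27.1, 28.8 and 29.8 CPM after sham and 29.1, 42.7 and 69.3 CPM after TAC. Its 3 sham libraries lay close together, 1 TAC library lay among them, and the estimate of 0.72 ± 0.27 did not pass (adjusted p = 0.196, edgeR with Benjamini-Hochberg adjustment). In all, 5 of 10 genes had TAC libraries that were all above all sham libraries, and 0 had them all below, against 11% and 10.8% of all genes tested.

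**Figure D1:**
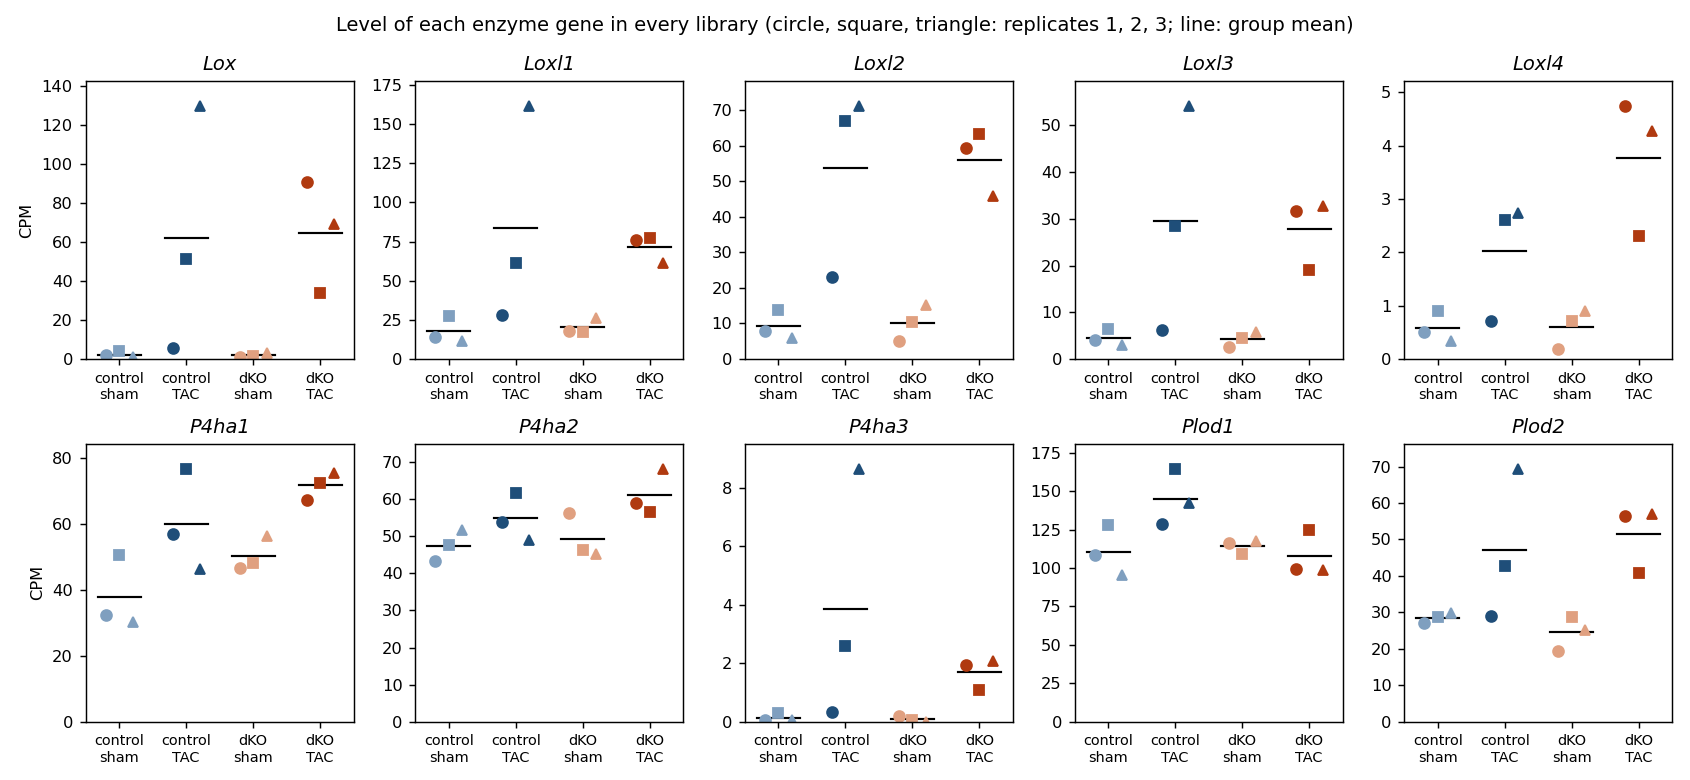
CPM of each of the 10 genes (vertical axis, starting at 0, a scale per gene) in the 4 groups, with 1 point per library, the shape giving the replicate number, and a line at the group mean. Lysyl oxidases and P4ha3 were high in most TAC libraries of both genotypes, with control TAC replicate 1 (circle) near the sham libraries, while P4ha2 and Plod1 varied little.

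The number of genes that passed after TAC in control varied with the libraries in the fit, as did the number over all genes. It was 5 with all libraries, beside 331 of all 14712 genes tested. It was 0 when 1 of 4 control libraries was left out: replicate 1 of sham (with 2 genes passing of all tested), replicate 3 of sham (3), replicate 2 of TAC (14) or replicate 3 of TAC (109). The log2 estimate of Lox in those fits was 4.65, 4.42, 4.91 and 3.66, and that of Loxl2 was 2.44, 2.31, 2.37 and 2.30. The estimates moved most without replicate 3 of TAC, where those of Loxl1, Loxl3 and P4ha3 were 1.34, 1.96 and 3.36. Without replicate 1 of TAC, 7 of the 10 genes and 1130 of all genes passed. Leaving out replicate 2 of dKO sham or any 1 dKO TAC library gave 2 of the 10 (176 to 236 of all genes), and leaving out replicate 3 of dKO sham gave 3 (253). With both libraries that stood apart left out, 4 of the 10 genes and 771 of all genes passed.

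The second comparison asked the same in dKO cardiomyocytes. Again 4 of 5 lysyl oxidases rose, here Lox, Loxl2, Loxl3 and Loxl4, together with P4ha3 and Plod2. That made 6 of 10 genes, with 0 that fell (edgeR with Benjamini-Hochberg adjustment). Of all genes tested, 4.2% rose, 3.19% fell and 7.39% passed in either direction. The median log2 change was 2.12 over the 10 genes and -0.01 over all genes tested. In 9 of the 10 genes all TAC libraries lay above all sham libraries, and in 0 all lay below, against 16.2% and 14.5% of all genes tested.

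Lox had 1.04, 1.69 and 3.2 CPM in dKO sham and 90.7, 33.8 and 69.2 CPM in dKO TAC. The groups were far apart, and Lox rose by 4.99 ± 0.94, 31.8-fold (adjusted p = 0.0113, edgeR with Benjamini-Hochberg adjustment). Loxl2 had 4.98, 10.5 and 15.1 CPM after sham and 59.2, 63.2 and 45.7 CPM after TAC. It rose by 2.45 ± 0.48, and the 3 TAC libraries lay within a narrow range (adjusted p = 0.0126, edgeR with Benjamini-Hochberg adjustment). Loxl3 went from 2.64, 4.42 and 5.68 CPM to 31.6, 19.1 and 32.8 CPM, a rise of 2.69 ± 0.61 (adjusted p = 0.0236, edgeR with Benjamini-Hochberg adjustment). Loxl4 had 0.184, 0.719 and 0.904 CPM after sham, with 3 counts in the first library, and 4.74, 2.31 and 4.27 CPM after TAC. This scarce enzyme rose by 2.58 ± 0.60 (adjusted p = 0.0253, edgeR with Benjamini-Hochberg adjustment), and its summed counts per library size were 5.56 times as high (95% counting interval 4.08 to 7.72). Loxl1 had 17.9, 17.5 and 26.1 CPM after sham and 75.8, 77.1 and 61.2 CPM after TAC. Its groups did not overlap, but the estimate of 1.80 ± 0.51 just missed the threshold (adjusted p = 0.0538, edgeR with Benjamini-Hochberg adjustment).

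P4ha3 had 3, 2 and 0 counts in dKO sham and 57, 35 and 51 counts in dKO TAC. Its summed counts per library size were 23.5 times as high after TAC (95% counting interval 9.84 to 73.5), and it passed the test (adjusted p = 0.0427, edgeR with Benjamini-Hochberg adjustment). P4ha1 had 46.6, 48.1 and 56.4 CPM after sham and 67.4, 72.3 and 75.6 CPM after TAC, without overlap, and an estimate of 0.51 ± 0.23 that did not pass (adjusted p = 0.167, edgeR with Benjamini-Hochberg adjustment). P4ha2 had 56.2, 46.4 and 45.1 CPM after sham and 58.9, 56.6 and 68.1 CPM after TAC, an estimate of 0.31 with a 95% interval of -0.03 to 0.66. The common subunits thus had small positive estimates in both genotypes, next to a large change of the rare P4ha3.

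Plod2 had 19.5, 28.8 and 25.2 CPM in dKO sham and 56.3, 40.9 and 57 CPM in dKO TAC. It rose 2.09-fold, by 1.07 ± 0.28 on the log2 scale (adjusted p = 0.0379, edgeR with Benjamini-Hochberg adjustment). Plod1 had 116, 109 and 118 CPM after sham and 99.2, 125 and 98.5 CPM after TAC, with overlapping groups and an estimate of -0.09 (95% interval -0.46 to 0.28). It was the only gene of the 10 with a negative estimate after TAC in dKO.

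The number that rose in dKO was 6 with all libraries, beside 1087 of all genes that passed in either direction. It was 2 without replicate 1 of dKO sham (896 of all genes), replicate 2 of dKO sham (661) or replicate 3 of dKO TAC (306), and 1 without replicate 1 of dKO TAC (210). It was 4 without replicate 3 of dKO sham (1257), replicate 2 of control TAC (837), or replicate 1 or 3 of control sham (791 and 809). Lox rose in all 12 fits that left out 1 library, with estimates of 4.67 to 5.52, and Loxl2 in 11 of them, with estimates of 2.13 to 2.85. P4ha3 and Plod2 rose in 3 of 12 each. Plod2 kept estimates of 0.93 to 1.21 over the alternatives tried, and P4ha3 of 3.80 to 5.60. Without both libraries that stood apart by transcript length, 3 of the 10 genes and 1580 of all genes passed.

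**Figure D2:**
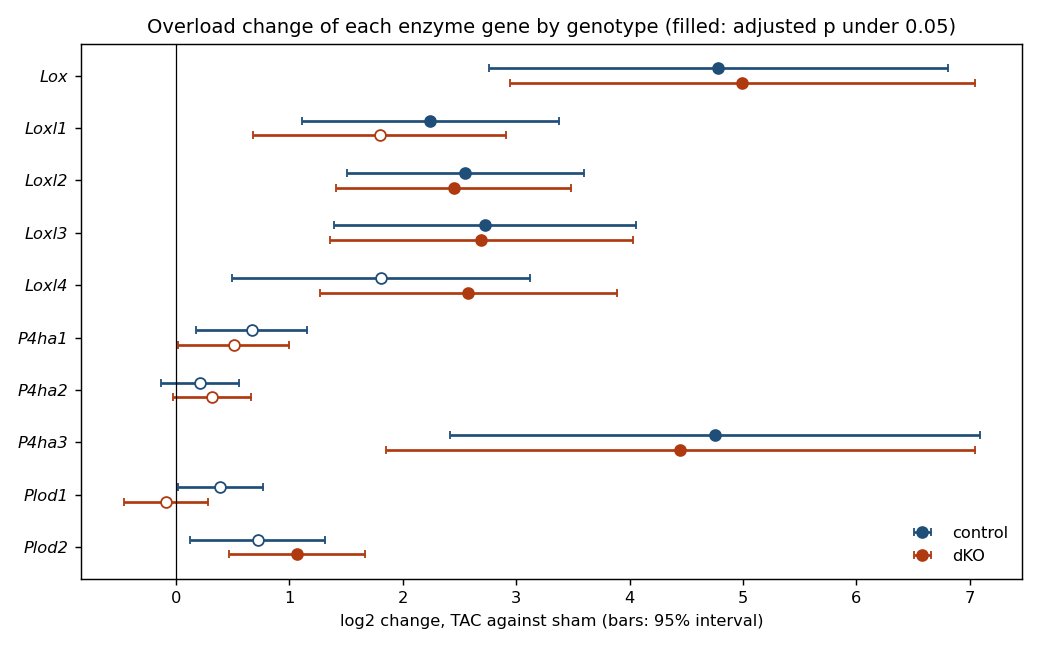
Log2 change after TAC against sham (horizontal axis) for each gene in control and dKO, with 95% intervals, filled where the adjusted p was under 0.05. The intervals of both genotypes overlapped for all 10 genes, with Lox at 4.78 and 4.99 and P4ha2 at 0.21 and 0.31.

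The third comparison asked whether loss of the 2 factors changed the enzymes. After sham, 0 of 10 genes passed between dKO and control (edgeR, Benjamini-Hochberg), where 0.0408% of all genes tested were higher in dKO, 0.0272% lower and 0.068% either. Of the 10 genes, 0 had an unadjusted p under 0.05. DESeq2 and limma-voom also gave 0. Estimates ran from -0.88 for P4ha3, at or under the floor of 3 counts in 5 of these 6 libraries, to 0.41 ± 0.23 for P4ha1, and dKO and control libraries overlapped for each gene. Of all genes tested, 9.27% lay without overlap higher and 9.42% lower. For Lox the difference was -0.16 with a 95% interval of -2.10 to 1.79, so a 2-fold difference in either direction lay within it. For P4ha2 and Plod1 the interval was narrower, from -0.29 to 0.39 and from -0.32 to 0.42.

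After TAC, 0 of 10 genes passed between dKO and control (edgeR, Benjamini-Hochberg), where 0.306% of all genes tested were higher in dKO, 0.122% lower and 0.428% either. DESeq2 and limma-voom gave 0, and 1 gene, Plod1, had an unadjusted p under 0.05. Its 3 dKO TAC libraries (98.5 to 125 CPM) lay below the 3 control TAC libraries (129 to 164 CPM). The log2 difference was -0.43 ± 0.17 (adjusted p = 0.452, edgeR with Benjamini-Hochberg adjustment), and 7.79% of all genes tested lay without overlap in this direction, and 9.8% in the other. Lox was at 64.5 ± 28.7 CPM (SD, n = 3) in dKO TAC and 62.2 ± 62.6 CPM in control TAC, a difference of 0.05 with a 95% interval of -1.62 to 1.73. P4ha3 had the lowest estimate, -1.19 ± 0.83, and Loxl4 the highest, 0.90 ± 0.55, and neither passed.

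The interaction, coded as the TAC change in dKO minus that in control, tested whether the overload response differed by genotype. None of the 10 genes passed (edgeR, Benjamini-Hochberg), 0 had an unadjusted p under 0.05, and DESeq2 and limma-voom gave 0. Of all 14712 genes tested, 0% passed. The interval was wide for Lox (0.21, 95% interval -2.36 to 2.78) and for Loxl1 (-0.45, -1.98 to 1.09), and narrower for P4ha2 (0.11, -0.38 to 0.59). For Plod1 it was -0.48 (-1.01 to 0.04). Loxl1 and Loxl4, and likewise Plod2, passed in 1 genotype only, and their interactions of -0.45, 0.77 and 0.34 did not pass.

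Scaled by exon length, Plod1 had the highest level of the set in control sham, at 16.3 ± 2.41 CPM per kb (SD, n = 3). P4ha1 (9.19 ± 2.72), P4ha2 (7.61 ± 0.668), Loxl1 (5.35 ± 2.59) and Plod2 (5.3 ± 0.26) followed, with neighbours in that order within 1 SD of each other. Loxl2 (1.7 ± 0.774), Loxl3 (0.973 ± 0.382) and Lox (0.475 ± 0.307) were lower, and Loxl4 and P4ha3 lowest, at 0.137 and 0.0446 CPM per kb. After TAC, Loxl1 had the highest mean in dKO (21.6 ± 2.67 CPM per kb), above P4ha1 (17.4 ± 0.998) and Plod1 (15.9 ± 2.22). In control TAC its mean was also highest (25.3 ± 21), but through replicate 3 alone: Loxl1 had 8.53, 18.6 and 48.9 CPM per kb and Plod1 19, 24.3 and 21, so Plod1 was higher in 2 of the 3 libraries. Lox had 13 ± 13.1 CPM per kb in control TAC, where P4ha1 (14.6 ± 3.73) and Loxl2 (9.94 ± 4.92) lay within its spread. In dKO TAC it had 13.5 ± 6.02, between P4ha1 and Loxl2 (10.4 ± 1.69), and the SD of Lox covered both means.

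The make-up of the lysyl oxidase family differed between sham and TAC. Lox took 3.94% to 6.13% of the family's length-scaled level in control sham libraries and 7.92%, 22.1% and 26.7% in control TAC. In dKO it took 3.04% to 5.22% after sham and 15.1% to 31.2% after TAC. The share of Loxl1 was 59.6% to 63.7% after sham and 38.3% to 54.9% after TAC in control, and 60.8% to 75.6% and 37.4% to 49.9% in dKO. Shares of Loxl2 and Loxl3 overlapped between sham and TAC in both genotypes. Of the lysyl hydroxylase pair, Plod2 made up 17.4% to 24.9% after sham and 29.1% to 42.1% after TAC in dKO, and 22% to 28.2% and 22.1% to 37.9% in control. No test was run on these shares.

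**Figure D3:**
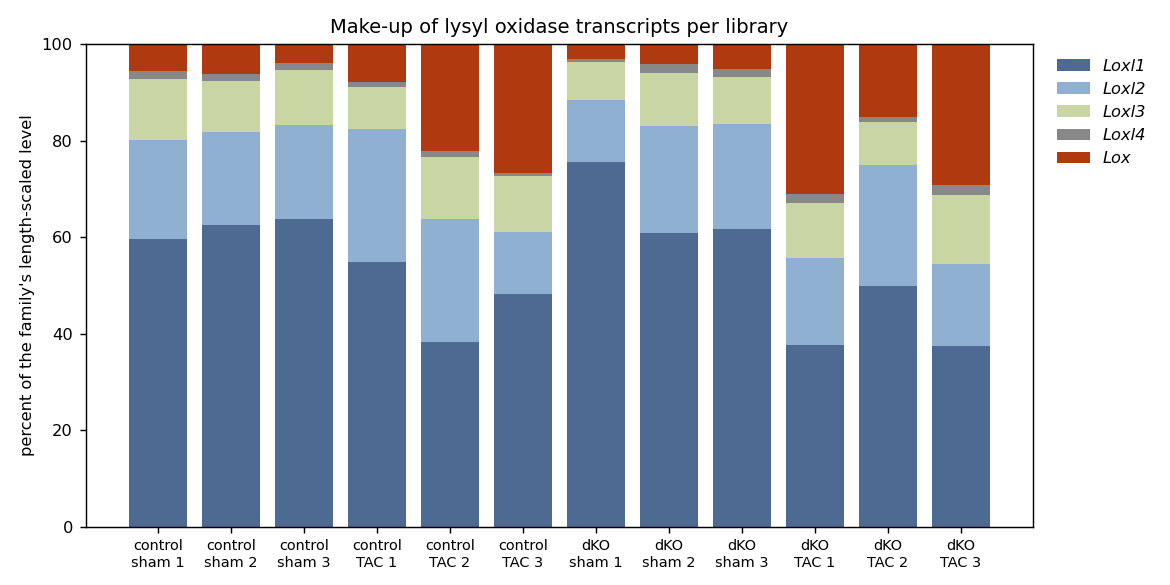
Share of each lysyl oxidase in the family's CPM per kb (vertical axis, percent) in each of the 12 libraries. The Lox segment was at most 6.13% in the sham libraries and between 7.92% and 31.2% in the TAC libraries.

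The fibroblast markers had smaller changes than the lysyl oxidases. None of 8 fibroblast markers passed after TAC in either genotype (edgeR, Benjamini-Hochberg), where 1.9% of all genes tested rose in control and 4.2% in dKO. The marker medians were 0.89 in control and 0.52 in dKO, and Lum had the highest estimate in control, at 1.72 ± 0.50. In control all 8 estimates were positive and 4 had an unadjusted p under 0.05 (edgeR), and in dKO 7 and 1. Macrophage markers had medians of 1.05 and 0.32, with 0 of 8 passing in each. Of these, 8 were positive in control and 6 had an unadjusted p under 0.05 (edgeR), and in dKO 7 and 0. Of all 14712 genes tested, 2480 had such a p in control and 4064 in dKO. Endothelial markers (0.08 and -0.48) and pericyte and smooth muscle markers (-0.21 and -0.32) had medians near or below 0, and none of the 8 in each list passed in either genotype. Lysyl oxidase counts per 1000 fibroblast marker counts were 71.4 to 117 after sham and 212 to 452 after TAC in control, and 106 to 128 and 399 to 586 in dKO. This ratio was therefore higher in each TAC library than in each sham library, control TAC replicate 1 (the 212) included. For prolyl 4-hydroxylase subunits it was 220 to 269 and 112 to 369 in control and 254 to 452 and 266 to 366 in dKO, and lysyl hydroxylases likewise overlapped between sham and TAC. The rare P4ha3 taken alone did not overlap, with 0.149 to 0.669 after sham and 1.12 to 9.33 after TAC in control. In dKO it had 0 to 0.808 after sham and 2.23 to 5.26 after TAC. What part the amount of fibroblast RNA had in the enzyme changes was not tested.

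Set against 3 fibrillar collagen chains, the summed families were lower after TAC. Other substrates, elastin and collagen IV among them, were not in this denominator. Over the list of 21 substrates the median log2 change was 2.75 in control and 2.71 in dKO. Over the lysyl oxidases it was 2.55 and 2.58, so for this family the lower ratio is shown for these 3 chains only. The medians were below those of the substrates for the prolyl 4-hydroxylase subunits (0.67 and 0.51) and the lysyl hydroxylases (0.56 and 0.49). Lysyl oxidase counts per 1000 counts of Col1a1, Col1a2 and Col3a1, the chains of the main fibrillar collagens, were 114 to 156 after sham in control and 60.1 to 81.1 after TAC. In dKO they were 128 to 213 after sham and 104 to 112 after TAC. For prolyl 4-hydroxylase subunits the ratio was 214 to 567 after sham and 15 to 140 after TAC in control, and 289 to 817 and 54.7 to 71.4 in dKO. The rare P4ha3 taken alone overlapped, with 0.253 to 0.65 after sham and 0.424 to 1.24 after TAC in control. In dKO it had 0 to 1.46 after sham and 0.599 to 1.02 after TAC. Of the single lysyl oxidases, Loxl1, Loxl2 and Loxl3 were lower on this scale in each TAC library than in each sham library of their genotype. Loxl4 was so in control only, and in dKO it overlapped, with 1.46, 2.66 and 2.58 after sham and 2.02, 1.27 and 2.09 after TAC. Lox lay the other way. In the control libraries it gave 10.4, 8.45 and 7.21 counts per 1000 collagen counts after sham and 7.4, 19.7 and 18.6 after TAC, with replicate 1 of TAC among the sham values. In dKO it gave 6.24 to 9.13 after sham and 18.6 to 38.7 after TAC. No test was run on these ratios, and for the rare genes they carry the counting error of the sham libraries.

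**Figure D4:**
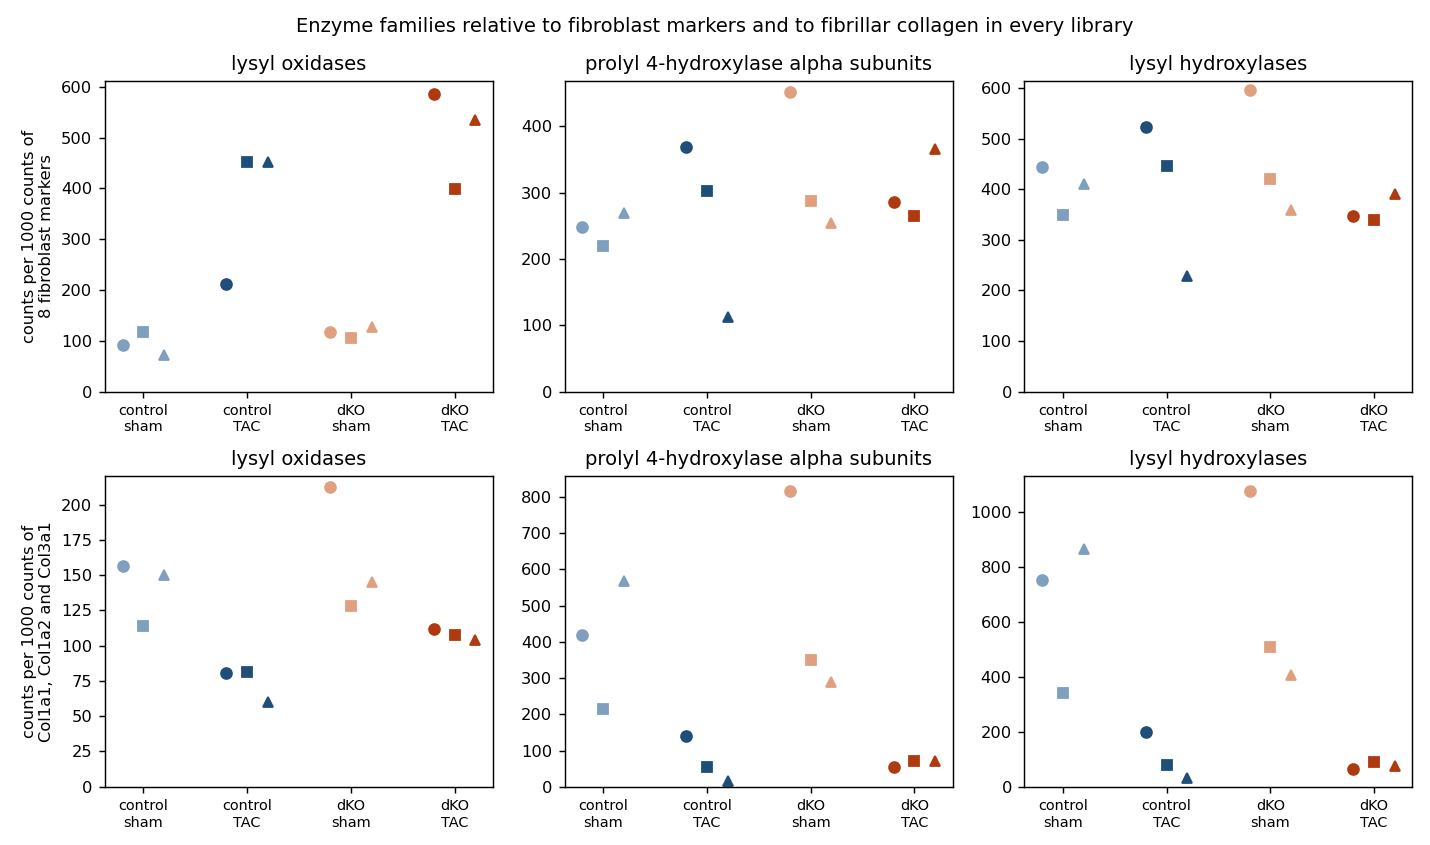
Summed counts of each enzyme family per 1000 counts of 8 fibroblast markers (top) and per 1000 counts of Col1a1, Col1a2 and Col3a1 (bottom), 1 point per library, axes from 0. Lysyl oxidases were higher per fibroblast marker in all 6 TAC libraries (212 to 586) than in the 6 sham libraries (71.4 to 128), and all 3 families were lower per collagen count after TAC in both genotypes.

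The other genes of collagen synthesis are given by the lists chosen for this purpose. Of 21 collagen, elastin and associated matrix substrates, 11 rose after TAC in control and 12 in dKO, with none lower. Their median log2 changes were 2.75 and 2.71. Over all genes tested, 1.9% rose in control and 4.2% in dKO, and 0.347% and 3.19% fell. Postn, a matrix protein that promotes collagen crosslinking by lysyl oxidase, rose by 5.01 in control and 4.91 in dKO. The fibrillar chain Col1a1 rose by 4.02 in control and 3.06 in dKO, and Col8a1 by 3.53 and 3.89. Col12a1, a collagen that binds along fibrils, rose by 4.80 in control and 5.26 in dKO. Eln, the elastin that lysyl oxidases also crosslink, rose in dKO by 2.71 and had an estimate of 2.75 in control that missed the threshold. Of 11 genes listed for procollagen processing and other steps on the matrix, not all of them propeptidases, 4 rose in control. Among them were Pcolce (1.46), the enhancer of C-propeptide removal, Adamts2 (2.44), the N-propeptidase, and Mmp14 (2.22). In dKO Adamts2 (2.42) and the transglutaminase Tgm2 (0.88) rose, and Tll2 fell from 0.441 to 0.0957 CPM, a level of about 3 counts.

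Of 11 partners of the hydroxylases, 0 passed in control (edgeR, Benjamini-Hochberg) and 2 rose in dKO. Over all genes tested, 2.25% passed in control and 4.2% rose in dKO. P4hb, the beta subunit of prolyl 4-hydroxylase, rose in dKO by 0.87 ± 0.18, from 249 to 455 CPM, and P3h2, a prolyl 3-hydroxylase, by 1.39 ± 0.32. In control P4hb had an estimate of 0.46 ± 0.18 that did not pass (adjusted p = 0.207, edgeR with Benjamini-Hochberg adjustment). Plod3, the remaining lysyl hydroxylase, had estimates of 0.71 ± 0.22 in control and 0.30 ± 0.22 in dKO and passed in neither. Of 14 folding and export factors, Serpinh1, the collagen chaperone HSP47, rose in control by 1.14 ± 0.27, and Tmem38b, an endoplasmic reticulum cation channel, rose in dKO by 0.70 ± 0.18. No gene of these 4 lists passed between dKO and control after sham, after TAC or in the interaction (edgeR, Benjamini-Hochberg). Over all genes tested, 0.068%, 0.428% and 0% passed, so this does not set the lists apart from other genes.

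Likeness was measured as the root mean square difference of centred log2 CPM over the 12 libraries. The search for the nearest genes left out the 10 enzyme genes, predicted genes and pseudogenes. The root mean square difference is small for any pair of genes that vary little, whether or not they move together. The genes most like Lox were Postn (0.27), Col12a1 (0.33) and Cilp (0.39), all genes of the extracellular matrix. The genes nearest to Loxl2 were instead Birc5, Knstrn and Clspn (0.21 to 0.25), which act in cell division and DNA replication. Those nearest to Loxl1 were Serpinf1, Mmp14 and Ssc5d (0.16 to 0.24), and to Loxl3 Fstl1, Adamts2 and Mfap5 (0.22 to 0.26). For Loxl4 they were Tgfb2, Cd44 and Clca3a1 (0.34 to 0.37). Those most like P4ha1 were Ttc26, Dusp3 and St6galnac4 (0.16 to 0.19). Those most like Plod2 were Arsb, Reep2 and Wls (0.18 to 0.19). None of the genes named for P4ha1 or Plod2 encodes a collagen. Among the 10 genes themselves the smallest difference was between Plod1 and P4ha2 (0.29). P4ha1 with P4ha2 (0.32), P4ha1 with Plod1 (0.40) and Loxl2 with Loxl3 (0.42) followed, and Lox with Plod1 differed most (2.47). The SD of log2 CPM was 0.23 for Plod1 and 0.20 for P4ha2, so their 0.29 does not show a shared pattern. For Loxl2 and Loxl3 the SDs were 1.45 and 1.53, well above their difference of 0.42. Libraries of 1 group share their surgery and preparation, so these distances describe the 12 libraries only.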

How the data were processed

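The authors deposited raw read counts per gene for 12 libraries, with no normalization. The submitters' processing notes name the genome GRCm38.p5 and, as tools, featureCounts, Subread 1.5.0p3, STAR 2.5.2b and Trimmomatic 0.36, without settings. The sources used here do not give the annotation or the strand setting. Per the labels' protocols, cardiomyocytes were sedimented for 10 min at 37 °C, and stranded poly(A) libraries from 200 ng of RNA were read as single ends of 100 nt. Sedimentation can leave other cells.

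All 12 libraries entered 1 edgeR 4.0.16 quasi-likelihood fit (R 4.3.3) with TMM normalization, filterByExpr by group and a mean per group, leaving 8 residual degrees of freedom. A gene is said to rise or fall where its p, adjusted by Benjamini-Hochberg over all 14712 genes tested, was under 0.05. The SE was taken from the log2 change and its F statistic. CPM were taken on TMM-scaled library sizes, and log2 CPM used a prior count of 2. Exon lengths came from GENCODE release 21, to which 1 symbol, Ctage5 (Mia2 in the table), was matched as a synonym. Intervals on counts and the floor of 3 counts cover counting error only. Alternatives were RLE factors, no filter, DESeq2 1.42.0, limma-voom (limma 3.58.1), a replicate block, the compared groups alone and left-out libraries. The tests were tried on simulated data. No pair of replicates was a duplicate (chi-square per degree of freedom of at least 17.3).

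The 10 genes, the lists and the alternatives were chosen with earlier results of these data known. The naming rule covers all 10 genes, up to 3 genes per other list and comparison that passed with the smallest p, and the 3 genes most like Lox, P4ha1 and Plod2. Plod3, Eln, Lum, P4hb in control, Col1a1 in dKO, Col12a1 in control and the genes nearest to Loxl1, Loxl2, Loxl3 and Loxl4 were named after their values were seen. Figures were drawn with matplotlib 3.10.9 (Python 3.11.15).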

Additional observations from a re-analysis of the deposited data

How the results depend on the processing

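Over the alternatives tried, the TAC estimates of all 10 genes kept their sign in both genotypes, but the number that passed varied. After TAC in control it was 5 (331 of all genes), and 1 with the replicate block (252), 0 with only the control groups in the fit (2 of 14114, P4ha3 being too low to be tested), 1 with limma-voom (175) and 6 with DESeq2 (1005), and from 0 to 7 when 1 library was left out. After TAC in dKO it was 6 (1087 of all genes), and 3 without both libraries that stood apart (replicate 1 of dKO sham and replicate 2 of dKO TAC; 1580), 5 with the replicate block (937), 4 with limma-voom (938), 7 with only the dKO groups (647) and 7 with DESeq2 (2376), and from 1 to 7 when 1 library was left out. Between genotypes and in the interaction it was 0 in each alternative, from 0 to 0 when 1 library was left out. Of 938 alternative estimates of single genes, 58 changed sign, all of them between genotypes or in the interaction and none past the threshold, with sizes up to 1.09. No evidence was found that the replicate numbers pair the libraries. Of 12 same-numbered pairs 5 had deviations correlated above 0.1 (range -0.474 to 0.35). In 3 of 12 cases a library deviated most like the library of its own number. With 3 libraries a group this check cannot exclude a pairing. At 3 libraries a group, intervals of the lysyl oxidases between genotypes spanned several-fold differences, and P4ha3 was limited by sham counts of 0 to 7.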

Other observations

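The 10 enzyme genes differed widely in how much they varied over the 12 libraries. The SD of log2 CPM was 2.64 for Lox, larger than in 99.9% of genes tested, and 2.16 for P4ha3 (99.6%). It was 0.20 for P4ha2 (larger than in 10.1%) and 0.23 for Plod1 (16%). Loxl2, Loxl3, Loxl4 and Loxl1 lay between 95.8% and 98.5%, and P4ha1 and Plod2 at 52.8% and 69.5%.

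After TAC in control, the level of P4ha1 was lowest (46.5 CPM) in replicate 3, the library with the highest Lox (130 CPM), Loxl1 (161 CPM), P4ha3 (8.65 CPM) and Plod2 (69.3 CPM). The summed fibroblast markers were also highest there, at 927 CPM, and the summed cardiomyocyte markers lowest of the group, at 43763 CPM. What part the makeup of that library had in these levels was not tested.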
